A study of Bos taurus and other sequences with 9 samples.

Results

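The U5, U6 and U7 small nuclear RNA (snRNA) loci were taken from the deposited table of small non-coding RNAs (ncRNAs) other than miRNAs as all rows of type snRNA whose name begins with U5, U6 or U7, with or without RN before it, and not with U6ATAC in capitals or lower case. The rule gave 234 of the 1361 loci in that table and 234 of its 419 snRNA loci. They were 16 U5 loci, 212 U6 loci and 6 U7 loci. Because most loci had very few counts, the loci of a family were summed and the family total was the main unit of comparison.

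U5 and U6 snRNA belong to the core of the spliceosome, where U5 holds the exon ends together and U6 pairs with U2 to form the catalytic site. U6 is transcribed by RNA polymerase III, and mammalian genomes carry many copies of it that are mostly pseudogenes. U7 does not act in splicing but guides the cleavage of the 3′ end of replication-dependent histone pre-mRNAs.

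RNA was measured in extracellular vesicle (EV) isolates from 5 culture media without cells. FBS was medium with untreated fetal bovine serum, with sample 1 from Sigma serum and sample 2 from Gibco serum. UC-dFBS and UF-dFBS were the same 2 sera after depletion of EVs by ultracentrifugation or by ultrafiltration, again with the Sigma serum as sample 1 and the Gibco serum as sample 2. SBI-dFBS was a purchased EV-depleted serum in 2 samples that share neither of those sera, and StemPRO was a defined serum-free medium with 1 sample and so without a replicate. The RNA in the serum samples is bovine by its label, whereas the loci and all coordinates given here are those of the human genome (GRCh37), so a count at a locus is a read that could be placed there and does not identify that gene. The p-values measure the spread between samples, which for FBS, UC-dFBS and UF-dFBS includes the difference between the sera.

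The total of miRNA and other small ncRNA counts ranged from 82513 to 6867736 in the 8 FBS-based samples and was 6679 in StemPRO. The authors divided each count by a spike-in factor, which relates counts to RNA of known amount added from outside. This factor was 3.78 to 9.04 in UC-dFBS, FBS and SBI-dFBS, 55.2 and 24.0 in UF-dFBS and 108 for StemPRO, so 1 count stood for less RNA in UF-dFBS and StemPRO than in the other media. The paper cautions that its spike-ins had the size of miRNAs. It holds the scaling to be likely less accurate for the other small ncRNAs, as most of them were longer. The members took 29 to 165 counts per sample, and the intervals given below are 95% intervals that cover counting error only.

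U5 loci together had 13 and 5 counts for FBS, 11 and 4 for SBI-dFBS, 9 and 3 for UC-dFBS, 32 and 3 for UF-dFBS and 54 for StemPRO. On the spike-in normalized scale these were 2.68 and 0.671 for FBS, 1.22 and 1.06 for SBI-dFBS, 1.38 and 0.440 for UC-dFBS, 0.579 and 0.125 for UF-dFBS and 0.500 for StemPRO. The order of the samples thus turned over between the scales, since UF-dFBS-1 and StemPRO had the most counts but lay among the lowest after normalization. Normalized U5 was above UF-dFBS-1 in 5 of the 6 samples of UC-dFBS, FBS and SBI-dFBS, and UC-dFBS-2 lay between both UF-dFBS samples.

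U6 was the largest of the 3 families in counts, with 44 and 35 for FBS, 33 and 14 for SBI-dFBS, 27 and 14 for UC-dFBS, 131 and 31 for UF-dFBS and 104 for StemPRO. Normalized U6 was 9.08 and 4.70 for FBS, 3.65 and 3.71 for SBI-dFBS, 4.13 and 2.05 for UC-dFBS, 2.37 and 1.29 for UF-dFBS and 0.963 for StemPRO. Both FBS samples were above all other samples, StemPRO was below all others, and UC-dFBS-2 again fell between both UF-dFBS samples. The whole spread over the FBS-based samples was 7.04-fold, against 21.5-fold for U5 and 104-fold for U7.

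U7 followed another order. Its counts were 6 and 23 for FBS, 34 and 12 for SBI-dFBS, 9 and 12 for UC-dFBS, 2 and 1 for UF-dFBS and 0 for StemPRO. Normalized U7 was 1.24 and 3.09 for FBS, 3.76 and 3.18 for SBI-dFBS, 1.38 and 1.76 for UC-dFBS, and 0.0362 and 0.0416 for UF-dFBS. No sample of UC-dFBS, FBS or SBI-dFBS came near the UF-dFBS samples, and SBI-dFBS lay above both FBS samples. All 6 U7 loci have names that mark them as pseudogenes, and RNU7-1, the gene for U7, was looked for but was not among the listed loci.

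**Figure D1:**
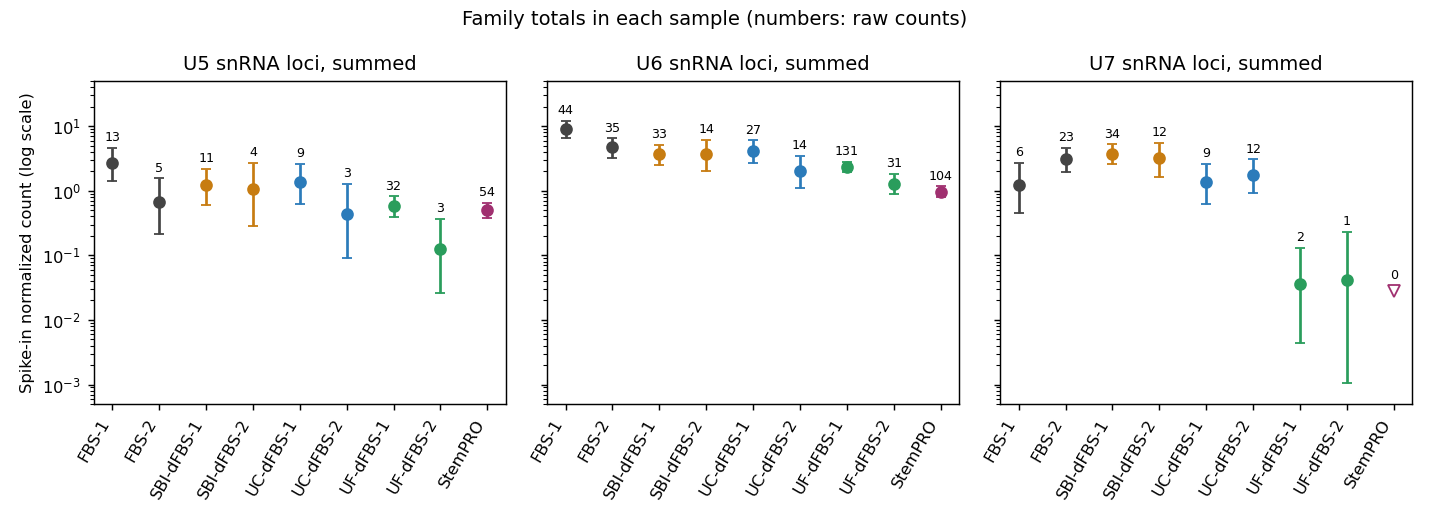
Spike-in normalized counts of the summed U5, U6 and U7 loci (y axis, log scale) in each of the 9 samples (x axis), coloured by medium. Bars are 95% Poisson intervals of the counts, each point carries its raw count, and the open triangle is the level of 3 counts for StemPRO, which had 0 U7 counts. U7 was 1.24 or more in the 6 samples of UC-dFBS, FBS and SBI-dFBS and 0.0416 or less in UF-dFBS, while U5 and U6 lay closer together.

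Ultrafiltration was compared with untreated FBS first. Mean normalized U7 was 2.16 ± 1.31 (SD, n = 2) for FBS and 0.0389 ± 0.00383 for UF-dFBS, which is 1.80% of the FBS mean. U5 was 1.68 ± 1.42 for FBS and 0.352 ± 0.321 for UF-dFBS (21.0%), and U6 was 6.89 ± 3.10 and 1.83 ± 0.765 (26.6%). Within the Sigma serum the ratio of UF-dFBS to FBS was 0.0292 for U7 (interval 0.00289 to 0.163), 0.216 for U5 (0.110 to 0.448) and 0.261 for U6 (0.184 to 0.376). Within the Gibco serum it was 0.0135 for U7 (0.000328 to 0.0831), 0.186 for U5 (0.0289 to 0.957) and 0.275 for U6 (0.164 to 0.459). All 3 families were thus lower after ultrafiltration in both sera, by amounts that for U6 were close between the sera.

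In the edgeR fit across all small ncRNA features, with the spike-in factors as library sizes, the log2 change from FBS to UF-dFBS was -5.54 for U7 (SE 1.44, adjusted p = 0.0770), -2.18 for U5 (SE 1.41, adjusted p = 0.289) and -1.90 for U6 (SE 1.31, adjusted p = 0.322). None of the 3 families passed the threshold of 0.05 in this fit. Neither did any of the 366 features tested (0%), of which 109 were under an unadjusted p of 0.05 and whose median change was -3.63. DESeq2 with spike-in size factors called 137 of the 366, U7 among them (adjusted p = 0.00668), and with its own size factors 1. A fit with the serum as a replicate block used the 6 samples of FBS, UC-dFBS and UF-dFBS, without SBI-dFBS. In it all 3 families passed, with changes of -5.42 for U7 (adjusted p = 0.000100), -2.24 for U5 (adjusted p = 0.0272) and -1.90 for U6 (adjusted p = 0.0245), as did 215 of 325 features (66.2%), all of them lower. In an alternative chosen after seeing the data, the same 6 samples were fitted without the serum, and U7 was at -5.58 (adjusted p = 0.0678), U5 at -2.19 (adjusted p = 0.317) and U6 at -1.90 (adjusted p = 0.292), with 0 of the 325 features called and 81 under an unadjusted p of 0.05. The changes of U5 and U6 were smaller than that of the median feature and the change of U7 was larger, which is a description and was not tested. Without FBS-1 the change of U5 was -0.89, and without UF-dFBS-1 it was -3.59.

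The sign for U5 and U6 rested on the spike-in scale. With TMM factors, which assume that most features do not change, U5 was higher in UF-dFBS by 1.13 and U6 by 2.04 on the log2 scale (adjusted p = 0.704 and 0.525), whereas U7 remained lower. The median change of all features moved from -3.63 with spike-in factors to -0.18 with the size factors of DESeq2.

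Against all 6 samples of UC-dFBS, FBS and SBI-dFBS, the mean of UF-dFBS was 0.0162 of the 6-sample mean for U7, 0.284 for U5 and 0.402 for U6. An exact two-sided permutation test on log2 values gave p = 0.0714 for U7, the smallest that 2 against 6 samples can give, and p = 0.143 for both U5 and U6. The groups did not overlap for U7 and overlapped in UC-dFBS-2 for U5 and U6. They did not overlap for U1, U2, U11 and U12 either, so the separation was not particular to U7. The highest UF-dFBS values of these families were 3.37, 4.45, 0.624 and 1.67. Their lowest values in the 6 other samples were 13.8, 72.8, 101 and 58.0. For U4 the groups overlapped, and the share of all features without overlap was not counted.

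Ultracentrifugation left higher values of each family than ultrafiltration did in both sera, a difference that was not tested. Mean normalized U5 was 0.908 ± 0.663 (SD, n = 2) for UC-dFBS, or 54.2% of FBS, U6 was 3.09 ± 1.47 (44.9%) and U7 was 1.57 ± 0.270 (72.5%). For U6 the ratio to FBS was 0.455 in the Sigma serum (interval 0.271 to 0.751) and 0.437 in the Gibco serum (0.217 to 0.833). The ratio for U5 was 0.513 (0.194 to 1.30) and 0.656 (0.102 to 3.37). U7 stood at 1.11 (0.353 to 3.79) in the Sigma serum and 0.570 (0.259 to 1.19) in the Gibco serum, so its direction differed between the sera within counting error. In the edgeR fit the changes were -0.86 for U5, -1.15 for U6 and -0.47 for U7 (SE 1.40, 1.30 and 1.20, adjusted p = 0.988 for each), and 0 of 366 features were called (0%), with 12 under an unadjusted p of 0.05 and 0 called by DESeq2 with either set of size factors. The sign of U5 turned to 0.43 without FBS-1 and that of U7 to 0.34 without FBS-2.

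On the spike-in scale, U5 and U6 had lower means in SBI-dFBS than in FBS and U7 had a higher one. U5 was 1.14 ± 0.111 (SD, n = 2), or 67.8% of the FBS mean, U6 was 3.68 ± 0.0407 (53.4%) and U7 was 3.47 ± 0.412 (160%). Both SBI-dFBS samples were below both FBS samples for U6 and above both for U7, and between them for U5. The edgeR changes were -0.54 for U5, -0.90 for U6 and 0.67 for U7 (SE 1.40, 1.29 and 1.19, adjusted p = 0.966 for each), with 0 of 366 features called (0%), 5 under an unadjusted p of 0.05, and 0 or 1 called by DESeq2 with spike-in or its own size factors. The median change of all features was 1.11, and without FBS-1 the change of U5 was 0.76. The sign of U7 turned to -1.69 with TMM factors and -1.72 with the size factors of DESeq2. The ratio of SBI-dFBS-1 to SBI-dFBS-2 was 1.15 for U5 (interval 0.340 to 4.95), 0.984 for U6 (0.513 to 1.99) and 1.18 for U7 (0.598 to 2.51), each interval reaching past equality. For U2 it was 0.948 (0.852 to 1.06) and for U1 8.33 (6.30 to 11.2).

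The sera could be compared in 3 preparations. The Sigma sample had more normalized U6 than the Gibco sample by a ratio of 1.93 for FBS (interval 1.21 to 3.11), 2.01 for UC-dFBS (1.02 to 4.15) and 1.84 for UF-dFBS (1.23 to 2.81). For U5 the ratios were 4.0 (1.34 to 14.3), 3.13 (0.781 to 18) and 4.64 (1.45 to 23.7). U7 went the other way, at 0.401 (0.134 to 1.01), 0.783 (0.291 to 2.02) and 0.870 (0.0453 to 51.3), with every interval reaching past equality. Only U6 had enough counts for the fit, in which its log2 difference was 0.94 (SE 0.57, adjusted p = 0.143) and did not pass. In the same edgeR fit 167 of 281 features were called (59.4%), all higher in the Sigma serum, with a median of 3.12. DESeq2 with spike-in size factors called 225 of the 281, 224 of them higher. With its own size factors DESeq2 called 147, of which 89 were higher and 58 lower, at a median of 0.02. The sign of U6 turned with TMM factors, to -2.97 (adjusted p = 0.00220). With no filter on low counts edgeR called 190 of 1004 features (18.9%), and U5 was among them at 1.94 (adjusted p = 0.0425), whereas U7 was at -0.72 (adjusted p = 0.795).

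Within the snRNA class, which does not depend on the spike-ins, U6 held 1.15% or less outside UF-dFBS-2 and StemPRO, and U5 0.726% or less outside StemPRO. U6 was 0.840% and 1.15% of the snRNA counts in FBS, 0.363% and 0.172% for SBI-dFBS, 0.675% and 0.662% for UC-dFBS, 0.449% and 7.51% for UF-dFBS (Wilson intervals 0.378 to 0.532 and 5.34 to 10.5) and 21.6% for StemPRO (18.2 to 25.5). U5 was 0.248% and 0.164% for FBS, 0.121% and 0.0491% for SBI-dFBS, 0.225% and 0.142% for UC-dFBS, 0.110% and 0.726% for UF-dFBS and 11.2% for StemPRO (8.71 to 14.4). The UF-dFBS samples stood on either side of their FBS samples, lower in the Sigma serum and higher in the Gibco serum, for both families.

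U7 was 0.115% and 0.755% of snRNA counts in FBS, 0.374% and 0.147% for SBI-dFBS, 0.225% and 0.567% for UC-dFBS, and 0.00685% and 0.242% for UF-dFBS. It had 0 of 481 snRNA counts in StemPRO, with an interval up to 0.792%. The difference of UF-dFBS from the 6 samples of UC-dFBS, FBS and SBI-dFBS was 0.260 percentage points for U5, 3.33 for U6 and -0.239 for U7 (exact two-sided permutation p = 0.429, 0.357 and 0.286). Without UF-dFBS-2 it was -0.0485 for U5 and -0.194 for U6, so the sign of both rested on that sample. U4 held 98.0% of the snRNA counts of UF-dFBS-1 and 43.3% of those of UF-dFBS-2, and its part in these shares was not tested.

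**Figure D2:**
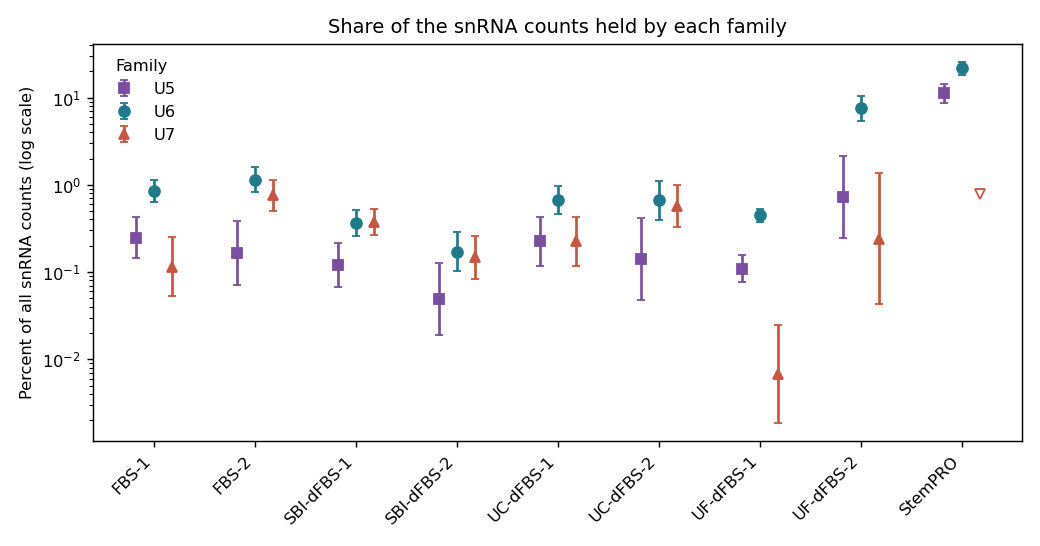
Percent of all snRNA counts held by U5, U6 and U7 (y axis, log scale) in each sample (x axis). Bars are 95% Wilson intervals, and the open triangle is the upper interval bound for U7 in StemPRO, which had 0 counts. U6 reached 7.51% in UF-dFBS-2 and 21.6% for StemPRO and was 1.15% or less in the other 7 samples.

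Beside the other snRNA families, U5 and U6 differed in their percent of the FBS mean but not in their level in UF-dFBS. Mean normalized counts in UF-dFBS were 0.352 for U5 and 1.83 for U6. They were 0.511 for U11, 1.64 for U12, 2.14 for U1 and 3.54 for U2. The mean of UF-dFBS was 2.80% of the FBS mean for U1, 2.29% for U2, 0.350% for U11 and 2.20% for U12, beside 21.0% for U5, 26.6% for U6 and 1.80% for U7. U4 was 93.2% of the FBS mean, with 518 and 7.45 normalized counts in the UF-dFBS samples and 557 and 6.71 for FBS. U5, U6 and U7 had lower means in FBS than these families, among which U1 was 76.5 ± 4.56 (SD, n = 2) and U2 was 155 ± 27.1. U6ATAC, which takes the place of U6 in the minor spliceosome, and U4ATAC had at most 1 count in any sample. These families were compared by their values, without a test of the difference between them.

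**Figure D3:**
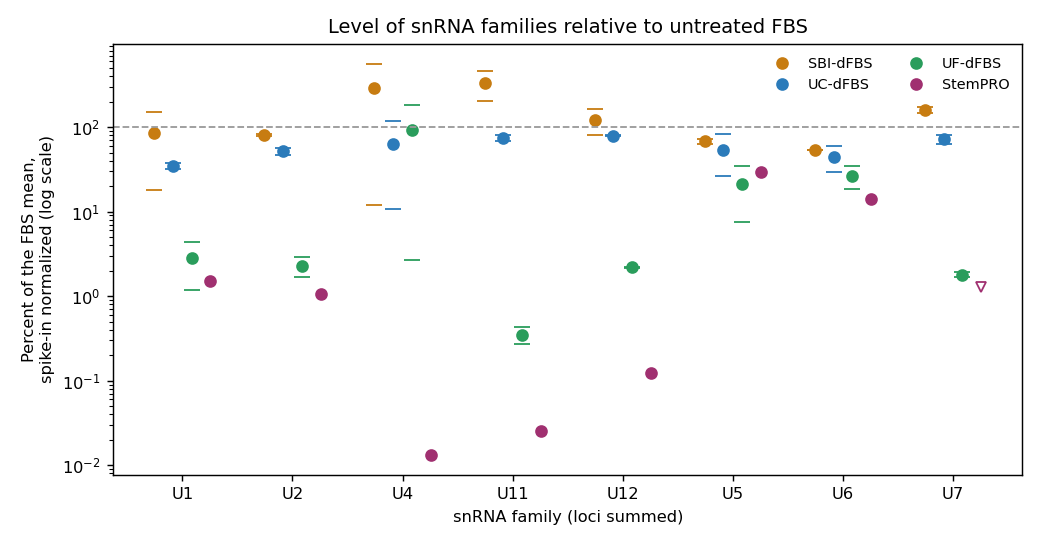
Spike-in normalized level of the U1, U2, U4, U5, U6, U7, U11 and U12 families as percent of the FBS mean (y axis, log scale) in SBI-dFBS, UC-dFBS, UF-dFBS and StemPRO. Circles are means or the single StemPRO value, dashes are the samples, the dashed line is 100%, and the open triangle is the level of 3 counts. In UF-dFBS, U5 and U6 stood at 21.0% and 26.6%, U4 at 93.2%, and U1, U2, U7, U11 and U12 at 2.80% or less.

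StemPRO had 54 counts of U5 and 104 of U6, and the members together made up 32.8% of its 481 snRNA counts. With its spike-in factor of 108, normalized U5 was 0.500 (Poisson interval 0.375 to 0.652), or 29.8% of the FBS mean, and U6 was 0.963 (0.786 to 1.17), or 14.0%. As the FBS samples differed, U5 in StemPRO was 18.6% of FBS-1 and 74.5% of FBS-2, and U6 was 10.6% and 20.5%. U5 in StemPRO was 0.863 of UF-dFBS-1 (interval 0.547 to 1.38) and 4.0 times UF-dFBS-2 (1.30 to 20), so it differed from UF-dFBS-2 beyond counting error and not from UF-dFBS-1. U6 was 0.406 of UF-dFBS-1 (0.311 to 0.529) and 0.746 of UF-dFBS-2 (0.495 to 1.15). For U7 no count was found (Poisson interval up to 0.0341). The FBS mean was 77.9 times the level of 3 counts in StemPRO, 0.0278, which lies below that upper limit. This ratio was 44.6 for FBS-1 alone and 111 for FBS-2 alone. U2 and U1 held 37.2% and 26.0% of the snRNA counts in StemPRO, at normalized levels of 1.66 and 1.16, above those of U6 and U5. With 1 sample there was no test.

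Counts per locus were low throughout. Of the 234 loci, 125 had a single count over all 9 samples (53.4%, against 24.2% of the other 1127 loci in the table), 45 had more than 3 and 10 had 10 or more. No member had a count in all 8 FBS-based samples, against 287 of the other loci, and 141 had counts in 1 sample only (60.3%, against 28.5%). StemPRO alone held 44 members (18.8%, against 4.08% of the other loci) and UF-dFBS-1 alone 38 (16.2%, against 4.70%). UF-dFBS-1, UF-dFBS-2 and StemPRO took 165, 35 and 158 of the 666 member counts. Counts only in UF-dFBS or StemPRO were found for 113 members (48.3%, against 12.1% of the other loci and 17.8% of the other snRNA loci). These shares are descriptions without a test. No member had 10 counts in 2 samples, so no single locus was tested in the edgeR fit. With no filter on low counts, 190 members were tested for UF-dFBS against FBS and 1, RNU7-25P-201, was called (log2 change -6.27, adjusted p = 0.0192), while 10 had an unadjusted p under 0.05. Over all loci of that fit 47 of 1271 were called (3.7%), all lower, and 218 had an unadjusted p under 0.05.

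The families differed in how counts spread over loci. In UF-dFBS-1 the 131 U6 counts fell on 93 loci and in StemPRO the 104 on 83 loci, and in UC-dFBS-2 and SBI-dFBS-2 every U6 locus that was found had 1 count. U7 was the reverse, with 34 counts on 6 loci in SBI-dFBS-1 and 23 on 5 in FBS-2. U5 had 54 counts on 12 loci in StemPRO and 32 on 10 in UF-dFBS-1. Of the 212 U6 loci, 155 had counts identical to those of another U6 locus in all 9 samples, and 34 of these had more than 1 count. How reads that match several near-identical copies were placed is not given in the sources used here. The identity of a single U5, U6 or U7 locus is therefore uncertain, and the family sum may count such a read more than once. Counting each set of identical loci once left 77 U6 loci with 271 of 433 counts and gave a ratio of UF-dFBS to the 6 other samples of 0.308 (exact permutation p = 0.0714). However, 121 U6 loci had a single count, and those with it in the same sample are identical whether or not they share a read. Merging them removes counts of UF-dFBS-1, where 36 U6 loci were found alone, and so can itself lower the ratio. No conclusion on shared reads is drawn from this step.

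**Figure D4:**
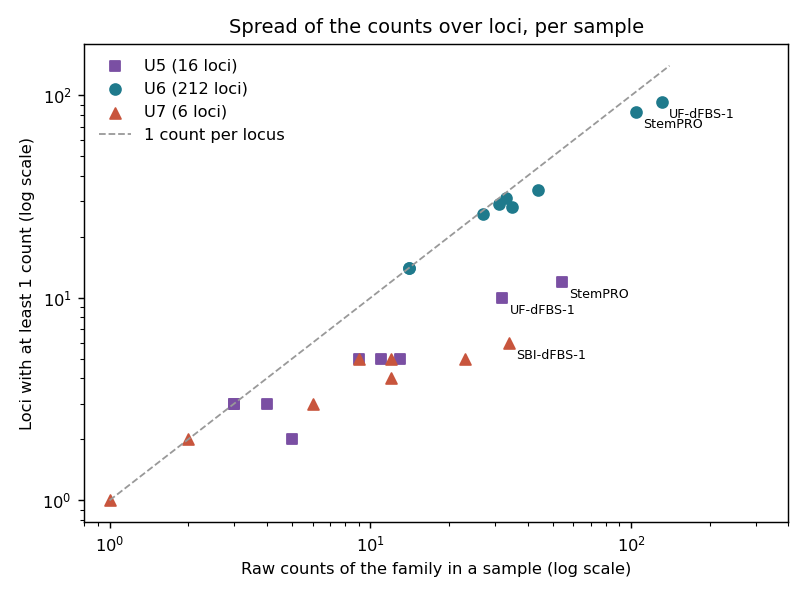
Loci with at least 1 count (y axis, log scale) against raw counts of the family in the sample (x axis, log scale), 1 point per family and sample. The dashed line is 1 count per locus, and StemPRO is missing for U7 because it had 0 counts. U6 samples lie on or just under the line, up to 131 counts on 93 loci, while U7 levels off at its 6 loci.

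U6 loci differed in length and name. Of the 212, 129 (60.8%) were 107 bases long, the length of RNU6-1-201, and these took 67.9% of U6 counts. The 47 loci with RNU6 names had 3.64 counts each on average, and the 165 loci listed as U6 followed by a point and a number had 1.59. Of the RNU6 names 93.6% were 107 bases long, against 51.5% of the others, so length and name were not separated. The RNU6 names took 47.7% and 62.9% of U6 counts in FBS, 57.6% and 42.9% for SBI-dFBS, 48.1% and 42.9% for UC-dFBS, 35.1% and 32.3% for UF-dFBS and 26.9% for StemPRO. Both UF-dFBS samples and StemPRO were thus below all other samples in this share, which is given without a test.

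Among the U5 genes, RNU5B-1-201 (chr15:65597015-65597130, plus strand) had the most counts, 32, and was found in 8 of 9 samples. It had 3 and 4 counts in FBS, 3 and 2 for SBI-dFBS, 1 and 0 for UC-dFBS, 9 and 1 for UF-dFBS and 9 for StemPRO. RNU5E-1-201 (chr1:11968209-11968328, plus strand) had 13 of its 22 counts in StemPRO and 4 in FBS-1. RNU5A-1-201 (chr15:65588389-65588504, plus strand) had 4 counts in FBS-1, 8 in UF-dFBS-1 and 7 for StemPRO and was at 0 or 1 in every other sample. These genes encode the variants of U5 that human cells use, and RNU5F-1-201 and RNU5D-1-201, which encode further ones, had 8 and 4 counts in all. RNU5A-1-201 and RNU5B-1-201 lie 8510 bases apart. RNU5E-4P-201, named as a pseudogene, lies 1536 bases from RNU5E-1-201 and had 19 counts, of which 7 were in UF-dFBS-1 and 4 each in UC-dFBS-1 and StemPRO.

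No U6 locus led its family. RNU6-40-201 (chr14:32671251-32671357, plus strand), the U6 locus with the most counts, had 10, with no more than 3 in any sample. RNU6-16-201 had 9, in 7 samples, at 1 or 2 each. Of the genes known to give rise to U6 in human cells, RNU6-9-201 had 8 counts, 4 of them in UF-dFBS-1. RNU6-1-201 and RNU6-7-201 had 7 each and RNU6-2-201 had 2, while RNU6-8 was looked for but was not among the listed loci. U6.1133-201 (chr17:47113714-47113817, plus strand) had 6 counts, all in StemPRO, the most of any U6 locus in 1 sample. RNU6-11-201 reached 4 counts in FBS-2 and RNU6-39-201 2 for FBS-1.

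U7 counts were shared by 5 loci that each had 12 to 26 in all. RNU7-7P-201 (chrX:38467468-38467529, plus strand) had 0 and 8 counts in FBS, 5 and 7 for SBI-dFBS, 3 and 2 for UC-dFBS, 0 and 1 for UF-dFBS and 0 for StemPRO. RNU7-47P-201 (chr3:142520049-142520110, plus strand) had 12 of its 24 counts in SBI-dFBS-1 and 1 in UF-dFBS-1. The other 3, RNU7-11P-201, RNU7-25P-201 and RNU7-63P-201, had 20, 16 and 12 counts, with 1 count between them in UF-dFBS and none in StemPRO. As all U7 loci together had 3 counts in UF-dFBS, low counts at each of these 5 loci follow from that total. The placement of reads that match several loci is not known, so the 5 loci are not separate support.

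**Figure D5:**
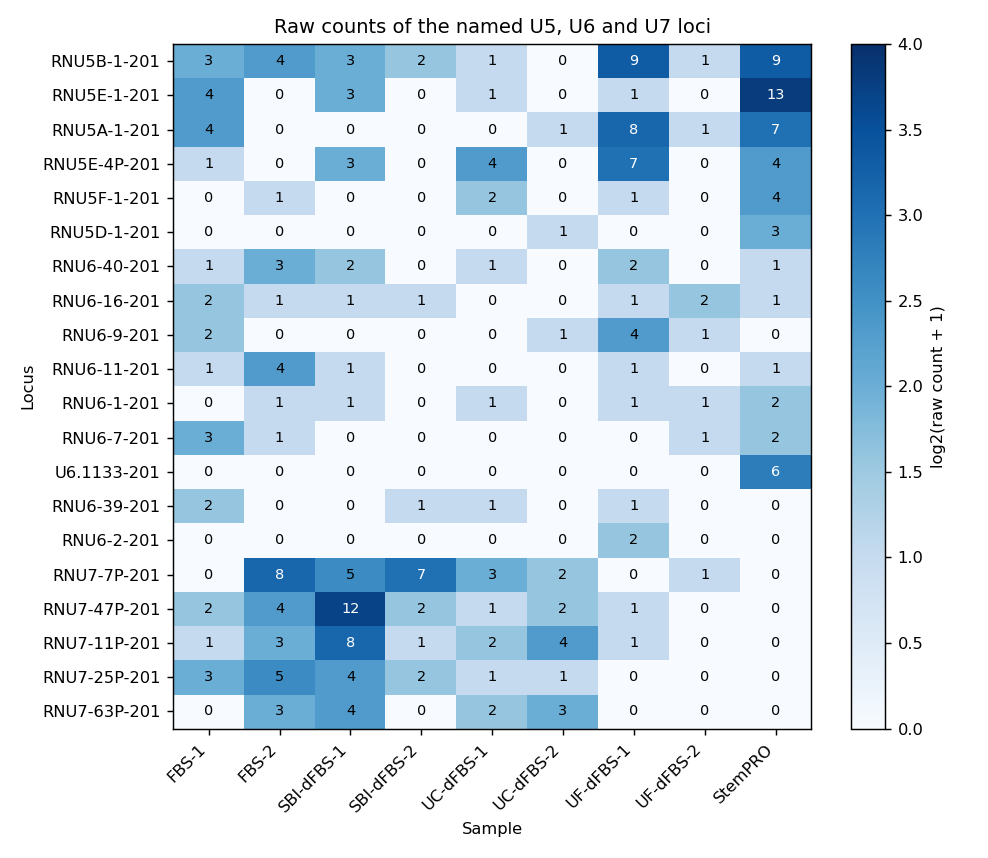
Raw counts of the 20 named loci (rows) in the 9 samples (columns), with the count in each cell and log2(raw count + 1) as the shade. Each U5 locus has its highest count in UF-dFBS-1 or StemPRO, and U6 loci have 0 to 6 counts everywhere. The 5 U7 loci have at most 1 count in any UF-dFBS sample.

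C/D box small nucleolar RNAs guide methylation of U6. Of 6 such guides looked for, 1 was listed, SNORD94-201, with 174 and 281 counts in FBS, 266 and 104 for SBI-dFBS, 150 and 128 for UC-dFBS, 7 and 2 for UF-dFBS and 1 for StemPRO. Its normalized level was 35.9 and 37.7 for FBS and 0.127 and 0.0833 for UF-dFBS. The edgeR change was -8.33 (adjusted p = 0.0770), which did not pass and was larger in size than that of U6, the difference between them not being tested.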

How the data were processed

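Small RNA of EV isolates from 9 media samples was sequenced with libraries that carry unique molecular indices (UMIs). According to their methods and the submitters' processing notes, the authors trimmed reads with cutadapt 1.11, kept inserts of at least 16 nt, collapsed reads with the same insert and full-length UMI, and mapped them with Bowtie2 2.2.2 to miRBase 20 and then to human GRCh37 with 1 mismatch allowed in the first 32 bases. The deposited counts are such reads per miRNA or small ncRNA locus, without normalization, and list only loci with at least 1 count in 1 sample. The deposited spike-in normalized signal is the count divided by the slope of a line through zero fitted to the spike-ins, and the ratio of count to signal was constant within each sample. The placement of reads that match several loci is not given in the sources used here, and reads mapped to the bovine genome were not analysed here.

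Loci were summed per family in python 3.11.15 with pandas 2.3.3. Features that reached 10 counts in 2 or more samples (3 or more for the serum comparison) entered the quasi-likelihood F-test of edgeR 4.0.16 (R 4.3.3) at an adjusted p threshold of 0.05 (Benjamini-Hochberg), with spike-in factors as library sizes, the loci of U5, U6 and U7 each summed to 1 feature and all other loci as deposited. Medium comparisons used the 8 FBS-based samples, and the serum comparison used the 6 samples of FBS, UC-dFBS and UF-dFBS with medium as a term. DESeq2 1.42.0, TMM, other filters, sample sets and leaving out samples were alternatives, and 1 further sample set was added after seeing the data. Single values were compared by exact two-sided permutation tests in scipy 1.17.1. Ratios of 2 samples have exact conditional intervals, totals exact Poisson intervals and shares Wilson intervals, at 95%. The fits were tested on simulated data.

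Samples 1 and 2 of FBS, UC-dFBS and UF-dFBS share a serum by their supplier labels. Differences between samples 1 and 2, across 363 loci, correlated at 0.759 (FBS and UC-dFBS), 0.604 (FBS and UF-dFBS) and 0.574 (UC-dFBS and UF-dFBS). With SBI-dFBS, which shares no serum, they correlated at -0.564 to -0.416. Serum was therefore used as the replicate block in an alternative fit. The main fits of the medium comparisons had no serum term and did not use this pairing.

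Named loci were the 5 per family with the highest mean normalized value over the FBS-based samples, the human U5, U6 and U7 genes where listed, loci past the threshold, and up to 3 per family with the most counts in StemPRO above 3. The members and lists were chosen with earlier results of these data known.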

Additional observations from a re-analysis of the deposited data

Results flagged for a closer look

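U7 after ultracentrifugation went in opposite directions in the sera, with a ratio of UC-dFBS to FBS of 1.11 in the Sigma serum and 0.570 in the Gibco serum, and both counting intervals held 1. As a share of snRNA counts the same ratios were 1.96 and 0.751.

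The share of U5 in snRNA counts changed in opposite directions after ultrafiltration, by a ratio of 0.442 in the Sigma serum and 4.43 in the Gibco serum. That of U6 did so as well, at 0.534 and 6.53. All snRNA counts are the base of these shares, and U4 held 98.0% of them in UF-dFBS-1 and 43.3% in UF-dFBS-2. In FBS-1 and FBS-2 it held 51.5% and 1.64%. On the spike-in scale U5 and U6 were lower in UF-dFBS than in FBS in both sera. The part of U4 in these shares was not tested. Each serum had 1 sample per medium, so none of these differences between the sera was tested.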

How the results depend on the processing

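Of 129 alternative values of the families' log2 changes, 118 kept their direction. No family had passed the threshold before these alternatives, so no call could be lost. TMM and the size factors of DESeq2 turned the sign of U5 and U6 in UF-dFBS against FBS (log2 changes of 1.13 and 1.38 for U5, 2.04 and 2.15 for U6), of U7 in SBI-dFBS (-1.69 and -1.72) and of U6 between the sera (-2.97 and -2.34). These scalings and the share of counts do not use the spike-ins. As a share of all small ncRNA counts, UF-dFBS was 5.99 times the mean of the 6 other samples for U5 and 11.6 times for U6, and StemPRO was 140265% of the FBS mean for U5 and 45161% for U6. In UF-dFBS against FBS, U7 passed with DESeq2 and spike-in factors (-5.82), and 1 locus was called with no filter.

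Leaving out 1 sample gave log2 changes of -3.59 to -0.89 (U5), -2.40 to -1.35 (U6) and -6.06 to -4.75 (U7) for UF-dFBS, -1.90 to 0.43, -1.74 to -0.60 and -0.97 to 0.34 for UC-dFBS, and -1.23 to 0.76, -1.30 to -0.35 and 0.17 to 1.48 for SBI-dFBS. The difference in the share of snRNA ranged from -0.0485 to 0.568 points for U5 and from -0.194 to 6.86 for U6. StemPRO was 18.6% to 74.5% of FBS for U5 and 10.6% to 20.5% for U6.

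With the replicate block, that is the paired fit by serum in the 6 samples of FBS, UC-dFBS and UF-dFBS, all 3 families passed in UF-dFBS against FBS (-2.24 for U5, -1.90 for U6 and -5.42 for U7), and no call changed in UC-dFBS against FBS. The same 6 samples without the serum term, an alternative chosen after seeing the data, gave -2.19, -1.90 and -5.58, and none passed. U5 and U7 did not reach the count filter of the comparison between the sera, and with no filter U5 passed there (1.94). No single member reached the count filter, and 3 counts in a sample stood for 0.0278 to 0.794 normalized counts. The error of the spike-in fits was not analysed here.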
